A study of Mus musculus with 69 samples.

Results

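The cyclin-dependent kinase inhibitors and D cyclins were followed through RNA-Seq counts of 69 libraries of cultured murine vascular cells. The 10 genes, Cdkn1a, Cdkn1b, Cdkn1c, Cdkn2a, Cdkn2b, Cdkn2c, Cdkn2d, Ccnd1, Ccnd2 and Ccnd3, were taken by gene family and not by their values, though with earlier results of these data known, and were found by matching the Ensembl identifiers of the count tables to gene symbols. All 10 were present among 56953 identifiers, and all 10 passed the filter on low counts in WT VSMC, KO VSMC and EC.

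D cyclins bind the kinases CDK4 and CDK6 and, by phosphorylation of the retinoblastoma protein, release E2F factors and allow the passage from G1 into S phase. The INK4 proteins p16, p15, p18 and p19 bind CDK4 and CDK6 and prevent this step, whereas the CIP/KIP proteins p21, p27 and p57 bind a wider range of complexes of cyclins and CDKs. In the vessel wall these genes are known from the growth arrest of contractile smooth muscle cells and from senescence, and p57 is encoded by an imprinted gene that is mainly expressed from the maternal allele.

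WT VSMC were primary vascular smooth muscle cells from the thoracic and abdominal aorta of male C57BL/6 mice, and KO VSMC came from males with a floxed Egfr gene and Cre recombinase under the SM22 promoter. EC were primary endothelial cells of the heart of male C57BL/6 mice labelled WT, selected with CD31 beads after removal of CD45-positive cells, and their labels name batch B2, those of VSMC batch B1. VSMC were kept without serum before treatment, which the methods do not state for EC. All cells were given bovine serum albumin in every medium and were exposed for 24 h to Control medium, to HG + FFA (20 mM glucose and, as the labels name it, 100 µM free fatty acids, in the published methods 100 µM of oleate and the same of palmitate), to AII + NA (30 nM angiotensin II and, as the labels name it, 300 nM epinephrine, in the published methods norepinephrine) or to ALL stressors. WT VSMC had 4 libraries per condition (sets 1 to 4), KO VSMC 4 (sets 5 to 8) except 3 for ALL, and EC 9 for Control and AII + NA and 10 for HG + FFA and ALL (sets 9 to 18). Within a set, animal, passage and day of treatment were the same. The 10 EC sets came from 9 animals, since sets 17 and 18 shared an animal, and EC sets 9 and 10 carry the animal numbers of WT VSMC sets 1 and 2. The ALL library of set 5, the Control library of set 10 and the AII + NA library of set 15 were not analysed here.

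The libraries held 17166133 to 43240489 counts. Egfr, the gene targeted in KO VSMC, averaged 249 to 433 FPM (fragments per 1000000 counts of the TMM-normalized library) in the WT VSMC sets. In KO VSMC it averaged 36.3 FPM in set 5, which is 10.1% of the WT VSMC mean, and 0.949 to 1.80 FPM in sets 6 to 8. EC sets 15 and 16, labelled wildtype, carry the animal numbers of KO VSMC sets 7 and 6 and had 9.40 and 2.65 FPM of Egfr. The other EC sets averaged from 12.8 FPM (set 18) to 151 FPM (set 11). Because of these animal numbers and the Egfr RNA in set 5, results are given with and without sets 5, 15 and 16 where they change. Of the smooth muscle markers, Acta2 lay between 223 and 1884 FPM in WT VSMC, while Tagln did not exceed 6.59 FPM and the fibroblast marker Pdgfra lay between 222 and 971 FPM. The endothelial marker Pecam1 ranged from 15.3 to 1843 FPM in EC and reached 17.2 FPM in WT VSMC. In such bulk samples, fewer cells of a type and less RNA per cell cannot be told apart.

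In the mouse genome (GRCm39) the family is spread over 5 chromosomes. The Cip/Kip genes are Cdkn1a (p21, ENSMUSG00000023067, chr17:29309936-29319701), Cdkn1b (p27, ENSMUSG00000003031, chr6:134897364-134902476) and Cdkn1c (p57, ENSMUSG00000037664, chr7:143012069-143014806). The Ink4 genes Cdkn2a (p16Ink4a and p19Arf, ENSMUSG00000044303, chr4:89192708-89212890) and Cdkn2b (p15, ENSMUSG00000073802, chr4:89223204-89229276) are neighbours on chromosome 4, where Cdkn2c (p18, ENSMUSG00000028551, chr4:109517957-109524386) also lies, and Cdkn2d (p19Ink4d, ENSMUSG00000096472) is at chr9:21199700-21202727. The D cyclins are Ccnd1 (ENSMUSG00000070348, chr7:144483668-144493662), Ccnd2 (ENSMUSG00000000184, chr6:127102125-127129156) and Ccnd3 (ENSMUSG00000034165, chr17:47815767-47910624). Counts were per gene over its exons, so that p16Ink4a and p19Arf, which share exons of Cdkn2a, cannot be told apart. Of the exon bases of Ccnd1, 48.4% overlap LTO1 on the opposite strand, and 29.0% of those of Cdkn1c overlap the opposite-strand lncRNA Gm44732. For the other genes this share was 0.0% to 15.8%. The strand setting of the counting is not given in the sources used here, and the counts of Ccnd1 and Cdkn1c are uncertain to that extent.

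The promoter of Cdkn2b is printed because Cdkn2b was the member that was higher than Control in WT VSMC exposed to ALL stressors. The window holds 270 bases before the start of the canonical transcript and 30 bases from it, on the coding (minus) strand, at chr4:89229247-89229546 of GRCm39, with the GENCODE annotation. Capitals mark the motif matches described after the sequence.
Cdkn2b: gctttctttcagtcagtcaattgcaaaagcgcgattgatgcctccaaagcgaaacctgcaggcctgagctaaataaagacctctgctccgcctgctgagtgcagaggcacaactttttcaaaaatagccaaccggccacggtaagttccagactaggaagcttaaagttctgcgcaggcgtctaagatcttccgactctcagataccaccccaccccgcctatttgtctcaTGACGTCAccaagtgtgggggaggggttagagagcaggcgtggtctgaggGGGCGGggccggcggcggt
The Cdkn2b window had 55% GC, where the median over 21648 promoters of the same length was 53.7%. It had a full cAMP response element, TGACGTCA, that starts 39 bases before the transcript start. Among the 9 members whose promoters were searched, it was the only promoter with this motif, which 2.33% of all promoters hold. It also had a single GC box, GGGCGG, 12 bases after the start, a motif present in 41.2% of all promoters and in 8 of the 9, Ccnd2 being without it. Of the other motifs searched on both strands, TATAAA (13.6% of all promoters), the E box CACGTG (7.65%), the AP-1 element TGAGTCA (4.75%) and the forkhead element TGTTTAC (3.24%) were in none of the 9 windows. The E2F element TTTGGCGC (0.614%) was found in that of Ccnd3. A match or its absence describes the letters of these windows and does not show binding.

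Under Control conditions all 10 genes were expressed in the 3 cell types. Relative to the length of the canonical transcript, Cdkn1a was highest in WT VSMC at 258 ± 97.2 FPM per kb (SD, n = 4), ahead of Ccnd3 at 133 ± 34.8, Cdkn2a at 104 ± 38.5 and Ccnd2 at 74.7 ± 16.6 FPM per kb. The other 6 genes followed between 29.8 FPM per kb (Ccnd1) and 10.3 FPM per kb (Cdkn2d). Ccnd2 and Ccnd1 were the only neighbours in this order whose ranges did not overlap, and all other neighbours overlapped. In KO VSMC, Cdkn1a (213 ± 21.8 FPM per kb, n = 4) and Cdkn2a (178 ± 57.5) led. In EC, Ccnd2 (147 ± 76.96 FPM per kb, n = 9) and Cdkn1a (134 ± 53.4) led and Cdkn1c was lowest at 4.79 ± 4.20 FPM per kb. In KO VSMC and EC every pair of neighbours overlapped. The order depends on the length used, since with the length of all annotated exons Ccnd3 took the fourth place in WT VSMC at 28.9 FPM per kb and Cdkn2a led in KO VSMC at 129.7 FPM per kb. In EC Cdkn1a then took the fourth place at 42.8 FPM per kb, behind Ccnd2 (98.6), Cdkn2a (69.6) and Ccnd1 (50.8).

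**Figure D1:**
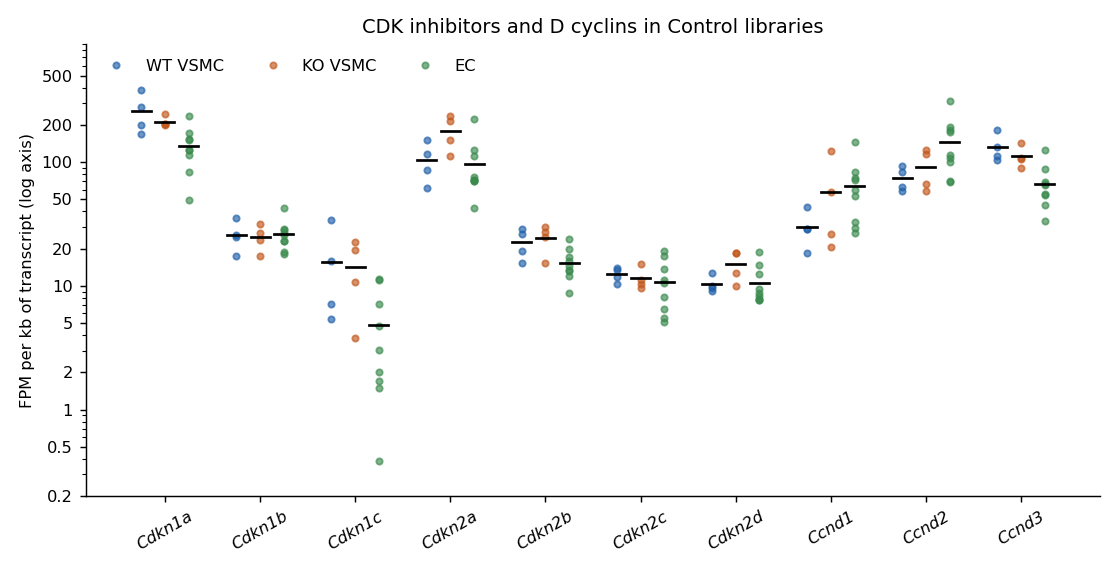
Level of each CDK inhibitor and D cyclin in the Control libraries of WT VSMC (n = 4), KO VSMC (n = 4) and EC (n = 9), in FPM per kb of transcript on a log axis, with a point per library and a bar at the mean. Cdkn1c spans the widest range in WT VSMC, from 5.355 to 33.98 FPM per kb, and in EC, from 0.3818 to 11.4 FPM per kb. In KO VSMC it is Ccnd1, from 20.75 to 124.0 FPM per kb.

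The sets differed more than the conditions for most members. For Cdkn1a, whose product p21 is the classical target of p53, 93.8% of the variance of log2 FPM in WT VSMC lay between sets, and the set with the highest mean had 2.61 times the lowest. For Cdkn1c the share was 90.3% in WT VSMC and 90.6% in EC, with a 6.46-fold and a 21.3-fold range of set means. Cdkn2b in WT VSMC differed from this pattern, with 16.6% of the variance between sets, whereas it had 59.2% in KO VSMC and 90.2% in EC. Among the D cyclins, Ccnd1 had the widest range of set means in each cell type (2.13-fold in WT VSMC, 4.94-fold in KO VSMC and 5.01-fold in EC), followed by Ccnd3 in WT VSMC (1.82-fold) and by Ccnd2 in KO VSMC (2.37-fold) and EC (4.37-fold). In KO VSMC, Ccnd1 Control values were 100 and 78.8 FPM in sets 5 and 8 and 471 and 217 FPM in sets 6 and 7. In the EC Control libraries Ccnd2 reached 1964 FPM in set 15 with the next value at 1217 FPM in set 16. EC set 10, with the animal number of WT VSMC set 2, had no Control library here. It had 1259 to 1485 FPM of Ccnd2 under the stressors, where set 16 had 1438 to 1507 FPM. KO VSMC sets 6 and 7 carry the animal numbers of EC sets 16 and 15, and the part of the animal in these values was not tested. All stressor comparisons were made within sets.

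In WT VSMC exposed to ALL stressors, Cdkn1c, the gene of the growth inhibitor p57, fell and Cdkn2b, the gene of p15, rose, while none of the D cyclins met the FDR threshold in edgeR. By edgeR's quasi-likelihood test with the set as a block, 2 of the 10 members were called at FDR under 0.05 (1 higher, 1 lower), where 7.45% of 16905 genes were called (3.92% higher, 3.53% lower). DESeq2 called 3 members, Ccnd2 in addition (10.1% of genes), and an unadjusted p under 0.05 was reached by 5 (21.7% of genes). Both Cdkn1c and Cdkn2b also met the definition of a DEG (FDR under 0.05 in both tools, |log2FC| not below 0.64 and 3 FPM or more in a group), as did 2.22% of genes. The median log2FC of the 10 members was -0.01, the same as that of all genes.

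Cdkn1c in sets 1 to 4 of WT VSMC had 13.7, 30.8, 10.3 and 65.6 FPM under Control and 6.86, 15.9, 6.76 and 36.6 FPM under ALL stressors. Every set was lower under ALL stressors, at 0.500, 0.518, 0.654 and 0.558 of its Control, although the groups overlapped because the sets differed in level. The log2FC was -0.85 ± 0.11 (SE, 95% interval -1.09 to -0.62, edgeR FDR = 0.000493), which corresponds to a fold of 0.554. Under HG + FFA the same sets had 9.01, 22.8, 5.91 and 55.5 FPM, again lower in 4 of 4, with a log2FC of -0.49 ± 0.11 (SE, edgeR FDR = 0.0588, DESeq2 FDR = 0.00598). Under AII + NA they had 12.8, 23.5, 9.53 and 53.7 FPM, lower in 4 of 4 by less, with a log2FC of -0.23 ± 0.11 (SE, edgeR FDR = 0.536). The decrease under ALL stressors kept its call when any of the 4 sets was left out, with a log2FC of -0.81 to -0.92 and an FDR of 0.00135 to 0.00642.

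**Figure D2:**
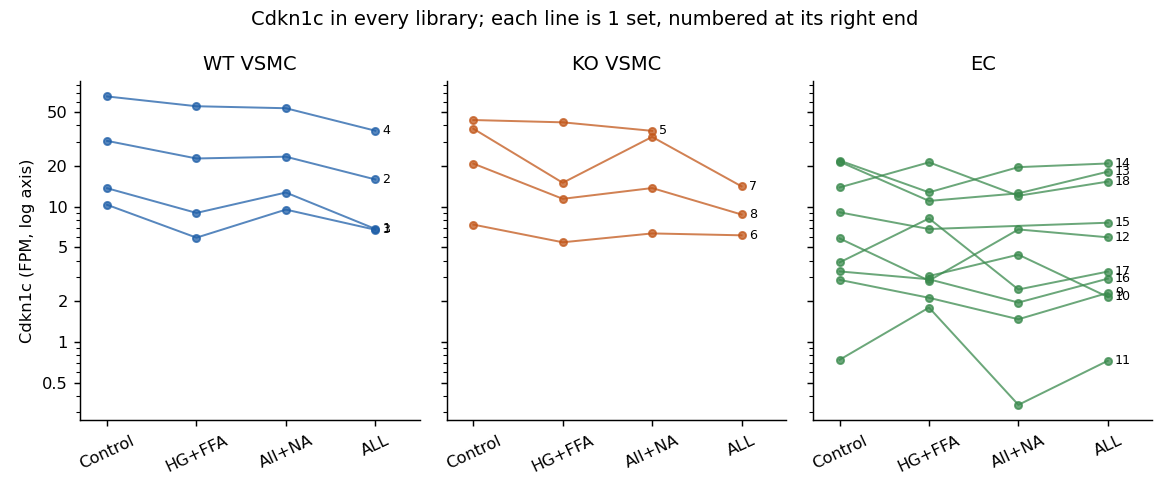
Cdkn1c in FPM (log axis) in Control, metabolic (HG + FFA), humoral (AII + NA) and ALL stressor libraries of WT VSMC, KO VSMC and EC, with a line per set. The WT VSMC lines start between 10.3 and 65.6 FPM and end lower under ALL stressors in 4 of 4 sets, and the KO VSMC lines end lower in 3 of 3.

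The other Cip/Kip genes were not called under ALL stressors. Cdkn1b, whose product p27 holds cells in G0 and G1, had 79.2, 117.8, 112 and 162 FPM under Control and 74.9, 90.9, 107.5 and 107 FPM under ALL stressors. It was lower in 4 of 4 sets with overlapping groups and a log2FC of -0.28 ± 0.09 (SE, edgeR FDR = 0.0719). Cdkn1a ranged from 325 to 742 FPM under Control and from 243.5 to 774 FPM under ALL stressors, with a log2FC of -0.17 (edgeR FDR = 0.269), lower in 3 of 4 sets.

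Cdkn2b was the Ink4 gene with the largest difference. Its 4 sets had 78.3, 72.1, 52.1 and 41.8 FPM under Control and 75.3, 126, 76.9 and 112 FPM under ALL stressors. Sets 2 to 4 were higher under ALL stressors, set 1 was at 0.962 of its Control, and the groups overlapped through set 1. The log2FC was 0.69 ± 0.18 (SE, 95% interval 0.31 to 1.07, edgeR FDR = 0.0287), a fold of 1.61. This call rested on few sets: without set 2, 3 or 4 the log2FC was 0.65, 0.74 and 0.46 and the FDR 0.103, 0.0714 and 0.171, while without set 1 it was 0.92 with an FDR of 0.0107. With the Control and ALL libraries alone in the model the FDR was 0.0651.

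Under AII + NA the values of Cdkn2b in WT VSMC were 111, 131, 69.1 and 120 FPM, higher than Control in 4 of 4 sets, at 1.33 to 2.87 times the Control of the set, with the groups overlapping through set 3. The log2FC was 0.81 ± 0.18 (SE, 95% interval 0.43 to 1.20), with an edgeR FDR of 0.121 and a DESeq2 FDR of 0.00187. Under HG + FFA the values were 69.2, 55.2, 49.6 and 46.3 FPM with a log2FC of -0.13 ± 0.18 (SE). In sets 2 to 4 Cdkn2b was thus higher than Control in both conditions with angiotensin II and the labelled epinephrine, which were always given together. In set 1 this held for AII + NA but not for ALL stressors. ALL against HG + FFA gave a log2FC of 0.82 ± 0.18 (SE, edgeR FDR = 0.0989, DESeq2 FDR = 0.00162).

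**Figure D3:**
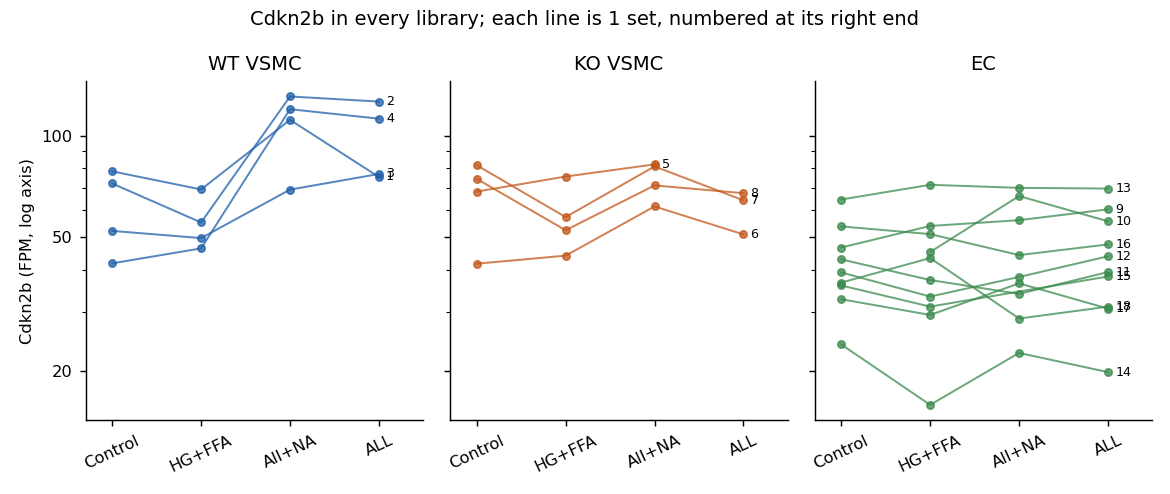
Cdkn2b in FPM (log axis) under the 4 conditions in WT VSMC, KO VSMC and EC, with a line per set. In WT VSMC the AII + NA values of 69.1 to 131 FPM lie above the Control of the same set in 4 of 4 sets, whereas in KO VSMC 2 of 4 sets are higher and 2 lower.

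The neighbouring gene Cdkn2a had 99.1, 74.2, 129 and 52.7 FPM under Control, 118, 91.3, 145.5 and 91.6 FPM under AII + NA and 88.0, 84.8, 135 and 87.8 FPM under ALL stressors. It was higher in 4 of 4 sets under AII + NA (log2FC 0.37 ± 0.11, SE, edgeR FDR = 0.252) and in 3 of 4 under ALL stressors (0.20, FDR = 0.308), and all groups overlapped. Cdkn2c, whose product p18 acts on the same kinases, ranged from 27.9 to 37.6 FPM under Control, from 23.2 to 32.9 FPM under AII + NA and from 23.5 to 35.0 FPM under ALL stressors, with log2FC values of -0.27 (edgeR FDR = 0.279) and -0.24 (FDR = 0.112). Cdkn2d stayed within 14.1 to 21.2 FPM in all 16 libraries and had log2FC values of 0.05 to 0.13.

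Of the D cyclins, Ccnd2 had the largest difference in WT VSMC. It had 592, 371, 527.5 and 399.9 FPM under Control and 693, 502, 711 and 432 FPM under ALL stressors, higher in 4 of 4 sets at 1.08 to 1.36 times the Control, with overlapping groups. The log2FC was 0.30 ± 0.09 (SE, 95% interval 0.11 to 0.50), with an edgeR FDR of 0.0580 and a DESeq2 FDR of 0.0184. Under HG + FFA it was 0.22 ± 0.09 and under AII + NA -0.03 ± 0.09 (SE). Ccnd1, the D cyclin known to answer to growth factors, had 164, 109.3, 109.4 and 69.4 FPM under Control and 163.5, 103, 94.3 and 73.7 FPM under ALL stressors (log2FC -0.05, 95% interval -0.23 to 0.12). Ccnd3 ranged from 209.5 to 366 FPM under Control and from 179 to 361 FPM under ALL stressors (log2FC 0.03, 95% interval -0.16 to 0.23).

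**Figure D4:**
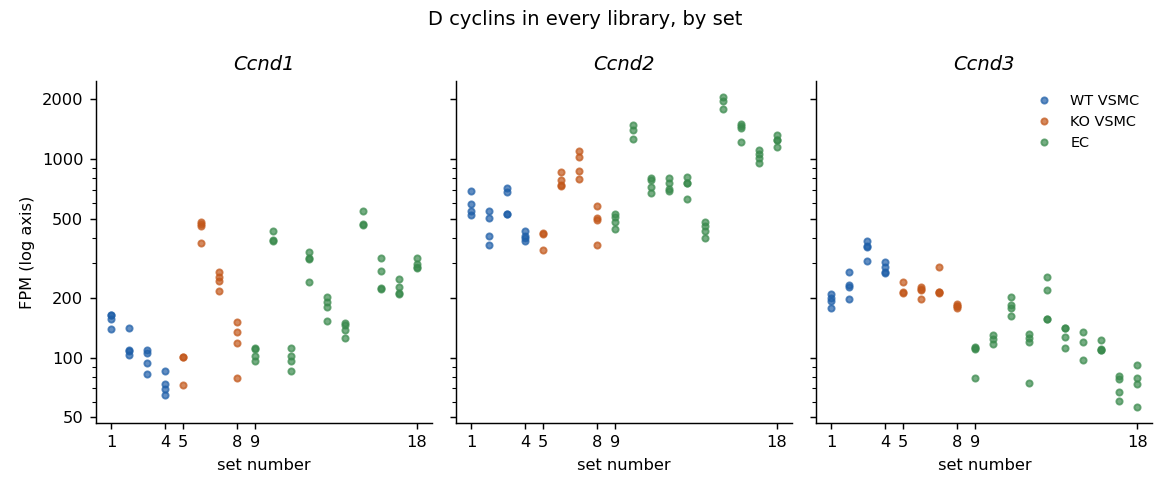
Ccnd1, Ccnd2 and Ccnd3 in FPM (log axis) in every library of WT VSMC, KO VSMC and EC, with a point per library placed by set number. The 4 conditions are not marked. In KO VSMC the Ccnd1 points of set 8 lie between 78.8 and 151 FPM. EC set 15 holds the highest EC points for Ccnd1 (550 FPM, Control) and Ccnd2 (2062 FPM, HG + FFA).

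Given alone, neither stressor group led to a called member in WT VSMC by edgeR. Under HG + FFA, 0 of 10 were called (0.538% of genes), 4 had an unadjusted p under 0.05 (11.2% of genes), namely Cdkn1a, Cdkn1c, Ccnd1 and Ccnd2, and DESeq2 called 1, Cdkn1c (2.01% of genes). The log2FC of Cdkn1a under HG + FFA was -0.23 ± 0.08 (SE, edgeR FDR = 0.287), lower in 4 of 4 sets. Under AII + NA, 0 were called (0.0532% of genes), 4 had an unadjusted p under 0.05 (9.42% of genes), namely Cdkn1b, Cdkn2a, Cdkn2b and Cdkn2c, and DESeq2 called 1, Cdkn2b (1.13% of genes). For ALL against HG + FFA edgeR again called 0 (0.0414% of genes), with 4 at an unadjusted p under 0.05 (10.8%) and 1, Cdkn2b, called by DESeq2 (1.64%).

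**Figure D5:**
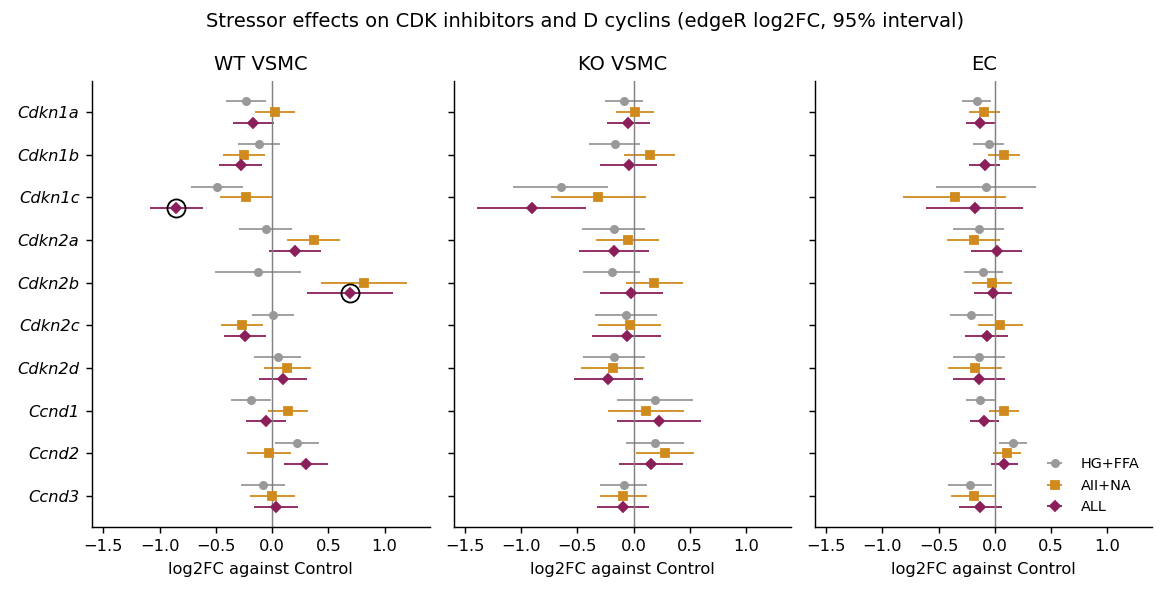
log2FC of each member under HG + FFA, AII + NA and ALL stressors against Control in WT VSMC, KO VSMC and EC, with 95% intervals from edgeR and circles around values with FDR under 0.05. Only Cdkn1c (-0.85) and Cdkn2b (0.69) under ALL stressors in WT VSMC are circled.

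Other RNAs moved under the same conditions in WT VSMC. Under ALL stressors, 3 of 10 smooth muscle markers rose (Itga8, Mylk and Tagln), 2 of 10 fibroblast markers fell (Pi16 and Col3a1) and 6 of 16 proliferation genes rose. Over all genes 3.92% rose and 3.53% fell by edgeR. Of 12 endothelial markers 1 rose and 2 fell, and of 6 pericyte markers tested 1 rose and 2 fell. The summed smooth muscle markers ranged from 425 to 1245 FPM under Control, from 954 to 2190 FPM under AII + NA and from 1175 to 1780 FPM under ALL stressors, and the summed fibroblast markers from 6889 to 20660 FPM under Control and from 7285 to 12690 FPM under ALL stressors. The summed proliferation genes ranged from 174 to 259 FPM under Control and from 195.5 to 286 FPM under ALL stressors. The part of these RNAs in the differences of Cdkn1c and Cdkn2b was not tested.

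In KO VSMC none of the 10 members was called by edgeR under any stressor condition. Cdkn1c again had the largest differences, with 43.9, 7.38, 37.8 and 20.9 FPM under Control in sets 5 to 8 and 42.2, 5.46, 15.1 and 11.5 FPM under HG + FFA. Every set was lower under HG + FFA, at 0.962, 0.740, 0.398 and 0.549 of its Control, and the groups overlapped. The log2FC was -0.65 ± 0.20 (SE, 95% interval -1.07 to -0.22, edgeR FDR = 0.233). Under ALL stressors sets 6 to 8 had 6.15, 14.2 and 8.77 FPM, which is 0.833, 0.375 and 0.420 of Control, with a log2FC of -0.91 ± 0.23 (SE, 95% interval -1.39 to -0.42, edgeR FDR = 0.122, DESeq2 FDR = 0.0146). Without set 5, which kept some Egfr RNA, Cdkn1c was called at -0.90 under HG + FFA (edgeR FDR = 0.0241) and at -0.99 under ALL stressors (FDR = 0.0329). The number of all genes called rose as well without set 5, as given at the end. With set 5 it was 77 under HG + FFA and 70 under ALL stressors. The part of the remaining Egfr RNA in this change was not tested.

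Cdkn2b in KO VSMC had 68.2, 41.7, 81.6 and 74.4 FPM under Control, 82.1, 61.6, 81.0 and 71.1 FPM under AII + NA and, in sets 6 to 8, 50.9, 64.2 and 67.4 FPM under ALL stressors. Sets 5 and 6 were higher and sets 7 and 8 lower under AII + NA, and all groups overlapped. The log2FC was 0.18 ± 0.12 (SE) under AII + NA and -0.02 ± 0.13 (SE, 95% interval -0.30 to 0.26) under ALL stressors. Ccnd2 was higher in 4 of 4 sets under AII + NA (log2FC 0.28 ± 0.12, SE, edgeR FDR = 0.509), and Ccnd1 was higher in 3 of 3 sets under ALL stressors (0.23 ± 0.18, SE, FDR = 0.662). Cdkn1a, Cdkn1b, Cdkn2a, Cdkn2c, Cdkn2d and Ccnd3 had log2FC values of -0.22 to 0.14 over the 3 conditions, and the values of the other 4 genes not given here lay between -0.31 (Cdkn1c under AII + NA) and 0.19.

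The counts in KO VSMC were 0 of 10 members by edgeR under HG + FFA (0.439% of genes), AII + NA (0.0%) and ALL stressors (0.399%). At an unadjusted p under 0.05 there was 1 member in each, Cdkn1c under HG + FFA (12.4% of genes), Ccnd2 under AII + NA (9.76%) and Cdkn1c under ALL stressors (10.5%). DESeq2 called 0 members under HG + FFA (1.7% of genes), 0 under AII + NA (0.0909%) and 1, Cdkn1c, under ALL stressors (1.79%).

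The stressor effects of the 2 genotypes were compared directly, by subtracting the KO VSMC effect from the WT VSMC effect. For Cdkn2b the difference was 0.64 ± 0.23 (SE, 95% interval 0.16 to 1.12, p = 0.0110, FDR = 0.395 in edgeR's quasi-likelihood test) under AII + NA and 0.71 ± 0.25 (SE, 95% interval 0.21 to 1.22, p = 0.00778, FDR = 0.465) under ALL stressors. Neither passed the FDR threshold, and without WT VSMC set 4 the differences were 0.45 and 0.50. Without KO VSMC set 5 they were 0.67 (FDR = 0.116) and 0.76 (FDR = 0.236). For Cdkn1c the difference under ALL stressors was 0.06 ± 0.26 (SE) with a 95% interval of -0.48 to 0.60, which leaves room for a difference in either direction. Under AII + NA the differences of Cdkn1b (-0.38 ± 0.14, SE, FDR = 0.395) and Cdkn2a (0.43 ± 0.18, SE, FDR = 0.403) also had an unadjusted p under 0.05.

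By edgeR, 0 of 10 members differed between genotypes in the effect of HG + FFA (0.0% of genes), AII + NA (0.0%) or ALL stressors (0.0109%). DESeq2 also called 0 (0.0%, 0.0% and 0.412% of genes). At an unadjusted p under 0.05 there were 0, 3 and 1 members (3.08%, 11.9% and 7.42% of genes).

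In EC no member was called under any stressor condition. Cdkn1c was low and uneven, with Control values from 0.737 to 22.0 FPM (median 5.83, n = 9), and values under ALL stressors from 0.724 to 20.9 FPM. The groups overlapped almost fully. It was lower than Control in 7 of 9 sets under ALL stressors and in 7 of 8 under AII + NA, with log2FC values of -0.18 (95% interval -0.61 to 0.25) and -0.36 (-0.82 to 0.10). Cdkn2b ranged from 24.0 to 64.6 FPM under Control (median 39.2), from 22.6 to 69.9 FPM under AII + NA and from 19.9 to 69.6 FPM under ALL stressors, and its log2FC was -0.02 in both (95% intervals -0.20 to 0.16 and -0.19 to 0.15). Its groups overlapped almost fully. Ccnd2 ranged from 434 to 1964 FPM under Control (median 723) and from 483 to 2062 FPM under HG + FFA and was higher in 8 of 9 sets, with a log2FC of 0.16 ± 0.06 (SE, edgeR FDR = 0.139). Cdkn1a was lower in 8 of 9 sets under HG + FFA, with a log2FC of -0.16 ± 0.06 (SE, edgeR FDR = 0.165). Under HG + FFA, 4 of 10 fibroblast markers fell in EC, where 3.53% of all genes were called in either direction. The endothelial marker Emcn rose (0.37 ± 0.08, SE, edgeR FDR = 0.00614) and the pericyte marker Cspg4 fell (-1.37 ± 0.36, SE, FDR = 0.0273). The summed fibroblast markers ranged from 1706 to 18490 FPM under Control and from 839 to 17870 FPM under HG + FFA. The summed endothelial markers ranged from 85.8 to 4387 FPM under Control and from 77.6 to 5358 FPM under HG + FFA. The part of these RNAs in the differences was not tested.

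None of the 10 members was called in EC by edgeR under HG + FFA (3.53% of genes), AII + NA (0.0%) or ALL stressors (3.18%), or by DESeq2 (7.01%, 0.0% and 5.91% of genes). At an unadjusted p under 0.05 there were 5 under HG + FFA (16.9% of genes), namely Cdkn1a, Cdkn2c, Ccnd1, Ccnd2 and Ccnd3, 0 under AII + NA (6.67%) and 0 under ALL stressors (16.2%). With all sets, the log2FC under HG + FFA was -0.21 ± 0.09 for Cdkn2c (SE, edgeR FDR = 0.234) and -0.22 ± 0.09 for Ccnd3 (SE, FDR = 0.212). Without sets 15 and 16 edgeR again called 0 members under each condition. Over all members and the 3 conditions against Control in EC the log2FC values lay between -0.36 and 0.16. For ALL against HG + FFA, 0 members were called in KO VSMC and EC by edgeR or DESeq2 (0.0% of genes by either tool in both), and 0 had an unadjusted p under 0.05 (2.91% of genes in KO VSMC and 5.14% in EC). The log2FC values lay between -0.26 (Cdkn1c) and 0.18 (Cdkn2b) in KO VSMC and between -0.10 (Cdkn1c) and 0.16 (Cdkn2a) in EC.

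Whether the combined effect departed from the sum of the separate effects on the log2 scale was tested in each cell type. edgeR called 0 members in WT VSMC, KO VSMC and EC (0.0% of genes in each), and DESeq2 called 0 (0.0% of genes in each). At an unadjusted p under 0.05 there were 0, 0 and 3 members (1.72%, 6.59% and 8.42% of genes), the 3 in EC being Cdkn2a (0.35 ± 0.16, SE), Ccnd2 (-0.18 ± 0.08, SE) and Ccnd3 (0.28 ± 0.13, SE). In WT VSMC the departure was -0.13 ± 0.16 (SE, 95% interval -0.47 to 0.20) for Cdkn1c and 0.00 ± 0.25 (SE, 95% interval -0.53 to 0.53) for Cdkn2b.

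Without stressors the genotypes differed in none of the members by edgeR (0.00622% of genes) or DESeq2 (2.14%). At an unadjusted p under 0.05 there were 2 (12.2% of genes), both higher in KO VSMC. Cdkn2a had 95.4, 128, 202 and 182 FPM in KO VSMC sets 5 to 8 against 52.7 to 129 FPM in WT VSMC, with overlapping groups and a log2FC of 0.80 ± 0.32 (SE, edgeR FDR = 0.408). Cdkn2d had 15.5, 28.4, 28.8 and 19.8 FPM against 14.1 to 19.7 FPM, with overlapping groups and a log2FC of 0.54 ± 0.22 (SE, FDR = 0.408). Without KO VSMC set 5 these were 0.96 (FDR = 0.108) and 0.69 (FDR = 0.0873). For Ccnd1 (0.93, 95% interval -0.24 to 2.11) and Cdkn1c (-0.11, 95% interval -1.59 to 1.36) the intervals were wide. The other 6 members had log2FC values of -0.26 (Cdkn1a), -0.24 (Ccnd3), -0.09 (Cdkn2c), -0.04 (Cdkn1b), 0.14 (Cdkn2b) and 0.30 (Ccnd2), with an FDR of 0.629 or more. In these Control libraries the fibroblast markers summed to 2293 to 12230 FPM in KO VSMC against 6889 to 20660 FPM in WT VSMC. The smooth muscle markers summed to 998 to 3156 FPM against 425 to 1245 FPM, and the proliferation genes to 194 to 807 FPM against 174 to 259 FPM. These ranges overlapped, and the part of these RNAs in the differences of the members was not tested.

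Between EC and WT VSMC under Control conditions, Ccnd3 was lower in EC, with 67.1 to 254 FPM (median 132, n = 9) against 209.5 to 366 FPM (n = 4). EC set 13 was within the range of WT VSMC and the other 8 sets were below it. The log2FC was -0.96 ± 0.28 (SE, 95% interval -1.56 to -0.36, edgeR FDR = 0.0398). It was the only 1 of 10 members called (12% of genes), and without EC sets 15 and 16 (log2FC -0.92, FDR = 0.0978) or without any of the WT VSMC sets (-0.78 to -1.07, FDR = 0.0683 to 0.146) it was not called. DESeq2 called 4, Cdkn1a, Ccnd1, Ccnd2 and Ccnd3 (21.1% of genes), and 6 had an unadjusted p under 0.05 (30.5%). Cdkn1a was at 94.97 to 455 FPM in EC against 325 to 742 FPM (log2FC -0.92 ± 0.32, SE, edgeR FDR = 0.0729), and Ccnd1 (1.12 ± 0.42, SE, FDR = 0.0911) and Ccnd2 (0.995 ± 0.38, SE, FDR = 0.0989) were higher on average, with overlapping groups. Without EC sets 15 and 16 the log2FC was 0.81 for Ccnd1 and 0.68 for Ccnd2. Cdkn1c, at 0.737 to 22.0 FPM in EC against 10.3 to 65.6 FPM, had the largest difference of the members (log2FC -1.68 ± 0.69, SE, edgeR FDR = 0.119), which was -0.97 without WT VSMC set 4. Cdkn2b was at 24.0 to 64.6 FPM against 41.8 to 78.3 FPM (-0.53 ± 0.23, SE, FDR = 0.142), and both groups overlapped. The log2FC values of Cdkn1b, Cdkn2a, Cdkn2c and Cdkn2d lay between -0.18 and 0.06. The 9 EC Control libraries came from 8 animals, of which that of EC set 9 has the number of WT VSMC set 1, and the model held no term for the animal. Cell type, organ, purification and labelled batch cannot be told apart in this comparison.

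The partners of the family were followed in gene lists chosen with earlier results of these data known. Of 20 CDK and cyclin partner genes, with a median log2FC of 0.17 (-0.01 over all genes), 4 rose and 0 fell in WT VSMC under ALL stressors (3.92% and 3.53% of all genes). These were the mitotic cyclins Ccnb1 (0.95 ± 0.18, SE, edgeR FDR = 0.00439) and Ccnb2 (0.78 ± 0.15, FDR = 0.00570), Ccna2, the cyclin of S phase and G2 (0.76 ± 0.21, FDR = 0.0412), and Pkmyt1, a kinase that inhibits CDK1 (0.57 ± 0.15, FDR = 0.0263). Of 17 RB and E2F genes, E2f8, a repressor of the E2F family, rose (1.45 ± 0.39, FDR = 0.0326) and Lin52 fell (-0.32 ± 0.08, FDR = 0.0278). Of 16 proliferation genes, 6 rose and 0 fell (median 0.54), among them Mki67 (1.30 ± 0.17, FDR = 0.000564), Top2a (1.02 ± 0.14, FDR = 0.000737) and Aurkb (1.18 ± 0.24, FDR = 0.00705).

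Of 22 genes of p53 and its targets, 1 rose and 2 fell in WT VSMC under ALL stressors (3.92% and 3.53% of all genes), and Cdkn1a, the member known as a p53 target, was not called. The 3 were Gdf15, a stress-induced cytokine (0.68 ± 0.18, SE, edgeR FDR = 0.0301), Sesn1 (-0.32 ± 0.08, FDR = 0.0233) and Bbc3, which encodes the pro-apoptotic protein PUMA (-0.33 ± 0.08, FDR = 0.0260). Of 14 FOXO and PI3K-linked genes 0 rose and 2 fell, Foxo1 (-0.50 ± 0.11, FDR = 0.0101), whose product is a known activator of Cdkn1b, and Bcl6 (-0.39 ± 0.10, FDR = 0.0226). Of 16 Polycomb genes and other regulators of the Ink4 locus edgeR called 0 (7.45% of all genes), with 3 at an unadjusted p under 0.05 (21.7%) and 1 called by DESeq2 (10.1%). Of 10 imprinted genes near Cdkn1c on chromosome 7, 7 were tested and 1 was called, the lncRNA H19, which fell by 2.33 on the log2 scale (SE 0.37, FDR = 0.00170).

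Under HG + FFA in WT VSMC, Ccnb1 (0.94 ± 0.17, SE, edgeR FDR = 0.0219), Mki67 (1.11 ± 0.17, FDR = 0.00667) and Top2a (0.89 ± 0.14, FDR = 0.00706) rose. These were the 3 genes called by edgeR of the 111 tested in the 7 lists (0.538% of all genes). Another 2 counts were 22 at an unadjusted p under 0.05 (11.2% of all genes) and 7 called by DESeq2 (2.01%). Under AII + NA edgeR and DESeq2 called 0 of the 111 (0.0532% and 1.13% of all genes), with 13 at an unadjusted p under 0.05 (9.42%). In KO VSMC edgeR called 0 of 112 genes of the lists under HG + FFA, AII + NA and ALL stressors (0.439%, 0.0% and 0.399% of all genes). At an unadjusted p under 0.05 there were 20, 17 and 16 (12.4%, 9.76% and 10.5%), and DESeq2 called 1, 0 and 1 (1.7%, 0.0909% and 1.79%). The median log2FC of the proliferation genes in these conditions was 0.34, 0.10 and 0.54 in WT VSMC and 0.33, -0.24 and 0.11 in KO VSMC. For the genotype differences in these effects edgeR called 0 of 113 genes of the lists in each (0.0%, 0.0% and 0.0109% of all genes). DESeq2 called 0, 0 and 1 (0.0%, 0.0% and 0.412%). In EC under HG + FFA 1 gene of each of 6 lists rose, namely Cdc25a (0.30), Rb1 (0.31), Eda2r (0.33), Ccng2 (0.23), Ezh2 (0.32) and Rrm2 (0.61). These were 6 of 111 genes tested, where edgeR called 3.53% of all genes. Under ALL stressors Ccng2, Ets1, Rrm2 and Mcm2 rose by 0.20 to 0.66 on the log2 scale, which is 4 of 111 (3.18% of all genes).

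The genes whose levels followed the called members most closely over the 16 WT VSMC libraries were found from set-centred log2 FPM among 12045 genes that averaged 3 FPM or more. For Cdkn1c these were Scara5 (Pearson r = 0.967), Naaa (0.958) and Matn2 (0.954), and all 3 fell under ALL stressors, with log2FC values of -1.31, -0.55 and -1.10 (edgeR FDR = 0.000564, 0.000436 and 0.000564). For Cdkn2b they were Spint2 (0.962), Mtus2 (0.962) and Enpp4 (0.959), of which Enpp4 rose under ALL stressors (0.59, FDR = 0.0463). These correlations come from the same libraries as the effects and are given as a description.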

How the data were processed

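Poly(A) RNA-Seq of WT VSMC, KO VSMC and EC was used. The authors mapped the reads with HISAT2 (2.1.0) to mm39, counted them over exons with featureCounts, reads with several alignments included, and deposited raw counts per gene and library, without normalization. Strand and pair settings are not given in the sources used here.

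Starting from the deposited counts, libraries were normalized by TMM, genes were filtered with filterByExpr, and edgeR 4.0.16 quasi-likelihood models with set and condition were fitted for each cell type in R 4.3.3 (16905 WT VSMC, 17538 KO VSMC and 17148 EC genes). The FDR is Benjamini-Hochberg's over every gene tested, and an FDR under 0.05 was a call. Genotype effects were compared in a joint model, and groups under Control without a set term. DESeq2 1.42.0 was the alternative tool, and its genes without an adjusted p-value were left out of its shares. FPM used TMM over all 69 libraries. Log2 ratios of FPM used a pseudocount of 0.1, and intervals are 95% intervals from the moderated SE. Gene positions and names came from GENCODE on GRCm39, in which 56310 of 56953 identifiers were found, and 0.0241% of the counts were on the others. Figures were drawn with matplotlib 3.10.9 in Python 3.11.15. The models were also run on simulated counts that held no differences between sets, so that the pairing by set was not tested in this way.

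Sets pair the libraries, since a set is 1 animal, passage and treatment day. Deviations from the group means correlated within sets with a mean r of 0.797 (WT VSMC), 0.780 (KO VSMC) and 0.820 (EC), the lowest being 0.494. Libraries of a group differed by a chi-square per gene of 41.6 or more, so none were duplicates.

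The genes named are the 10 members, Egfr, up to 5 genes of each pathway list by the smallest p among those called against Control, and the 3 genes most like each called member. The members were taken by gene family, and they and the lists were chosen with earlier results of these data known. The alternatives were DESeq2, other size factors, no filter, no set term, only the groups compared, single sets left out and EC without sets 15 and 16, with complete sets only or with the animal as the block, and sums over each set for KO VSMC against WT VSMC. Total counts of 23626664 to 37801299 per WT VSMC library, 23238979 to 35120866 per KO VSMC library and 17166133 to 43240489 per EC library set the precision of each value. The promoters of 9 members were searched for motifs and that of Cdkn2b is printed, and the promoter of 1 member is not reported here.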

Additional observations from a re-analysis of the deposited data

Results flagged for a closer look

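Of 110 groups of 4 to 10 libraries in which the highest and the lowest value of a member were compared with the rest, 10 held a library that stood apart by Dixon's criterion. Its nominal rate of about 1 in 20 holds for independent groups of normally distributed values. These groups shared sets and were compared in FPM without a log, so that rate is no measure of chance here. In all 10 the library was the highest of its group. In WT VSMC it was Cdkn2a under ALL stressors in set 3 (134.9 FPM, next 88.0 FPM). In KO VSMC it was Cdkn1a under Control in set 7 (472.0 FPM, next 390.8 FPM) and Cdkn1b under HG + FFA in set 8 (147.8 FPM, next 91.6 FPM).

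The other 7 were in EC. Cdkn1b in set 9 had 192.3 FPM under Control (next 132.4 FPM) and 247.8 FPM under AII + NA (next 143.4 FPM), and Cdkn2a in set 13 had 188.6 FPM under Control (next 106.3 FPM) and 163.8 FPM under AII + NA (next 97.4 FPM). Cdkn2d in set 11 had 28.11 FPM under HG + FFA (next 17.8 FPM) and 30.42 FPM under ALL stressors (next 15.7 FPM). Ccnd1 in set 15 had 550.2 FPM under Control (next 315.9 FPM). The values of sets 9, 13 and 11 stood apart in the same set under more than 1 condition, and each value entered the paired comparisons relative to its own set.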

How the results depend on the processing

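Over 1800 combinations of a member value and an alternative, 1643 kept their direction and their side of the threshold, 121 changed sign, all of them without an unadjusted p under 0.05 in the reported analysis, 12 lost a call and 24 gained one. Without the filter on low counts edgeR called 1 member in WT VSMC under HG + FFA, 2 under AII + NA, 4 under ALL stressors and 2 for ALL against HG + FFA, 1 in KO VSMC under HG + FFA and 1 under ALL stressors, 1 for the genotype difference under AII + NA and 1 under ALL stressors (Cdkn2b in both), and 0 for EC against WT VSMC. The number of all genes called rose as well without this filter, to 575, 625, 1885 and 653 in these 4 comparisons of WT VSMC, to 598 and 464 in those of KO VSMC and to 350 and 323 for the genotype differences, from 91, 9, 1259, 7, 77, 70, 0 and 2 with it. For EC against WT VSMC it was 1557 without the filter and 2062 with it. DESeq2 called 1 in WT VSMC under HG + FFA, 1 under AII + NA and 1 for ALL against HG + FFA, 1 in KO VSMC under ALL stressors and 4 for EC against WT VSMC. With only the groups compared in the model, 1 was called in WT VSMC under HG + FFA (Cdkn1c, FDR = 0.0223), 1 under AII + NA (Cdkn2b, FDR = 0.0311) and 1 under ALL stressors (Cdkn1c), and 1 in KO VSMC under ALL stressors (Cdkn1c, FDR = 0.0246). The share of all genes called in these smaller models is not given here, so these counts show nothing particular to the members. The causes were not tested.

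Without the set as a replicate block, 0 members were called in WT VSMC under ALL stressors by edgeR (Cdkn1c -0.86, FDR = 1.0, and Cdkn2b 0.68, FDR = 0.686), and 0 genes in all where 1259 were called with it. The block changed no other count of members.

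Leaving out each set in turn gave 1 to 2 called members in WT VSMC under ALL stressors, 0 to 1 in KO VSMC under HG + FFA and under ALL stressors (1 without set 5), and 0 for EC against WT VSMC without any WT VSMC set or without EC sets 15 and 16. In KO VSMC without set 5, 1442 genes were called under HG + FFA and 175 under ALL stressors, where 77 and 70 were called with it. Over all genes DESeq2 called 294 under HG + FFA and 169 under AII + NA in WT VSMC, where edgeR called 91 and 9. In EC 157 genes were called under HG + FFA and 134 under ALL stressors with the animal as the block, where 605 and 546 were called with the set. The 95% intervals give the precision of each difference and are not limits of detection, which were not calculated. A wholly positive interval did not always go with a call, as for Cdkn2b in WT VSMC under AII + NA (0.43 to 1.20, edgeR FDR = 0.121).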
